A study of Homo sapiens with 6 samples.

Results

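Interferon response genes are the transcripts that cells switch on when interferon, or viral nucleic acid, is sensed. They were examined here in LX-2, a human line derived from hepatic stellate cells, the cells that lay down scar matrix in the liver. Cultures were compared with and without added IGFBP-7, an IGF-binding protein that cells secrete. The set was given as 35 symbols, of which DDX58 and RIGI name the same gene. Rows of the expression table were taken by symbol, and 33 genes were found among the 16569 of the table. HERC5 was not analysed here.

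One group received 100 ng/mL of IGFBP-7 for 24 h and the other received phosphate-buffered saline (PBS) for the same time. Both groups consisted of wild-type LX-2 cells grown with 2% serum and then held without serum for 18 h. Each group has 3 libraries of poly(A) RNA, and no label says that they came from separate cultures. The p-values here therefore rest only on scatter between libraries, which may be technical. As a single line in culture, LX-2 stands for stellate cells without the other cells of the liver, and no interferon was added to any sample. Levels are the authors' normalized counts. Each log2 change is the IGFBP-7 mean less the PBS mean of log2(normalized count + 1), with limma's standard error (SE). limma sets each gene's error partly from other genes of like level, so the SE can understate the scatter of genes of unusual spread.

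Type I interferons bind the receptor chains IFNAR1 and IFNAR2, and the kinases JAK1 and TYK2 then phosphorylate STAT2. STAT2 and IRF9 are subunits of the complex ISGF3, which binds a DNA element called the interferon-stimulated response element (ISRE) in the promoters of interferon response genes. Type II interferon acts through another element, the gamma-activated site (GAS). In the liver, the products of these genes restrict hepatitis viruses, and many of them are also transcribed at a low level without infection.

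The ISRE is shown here for 5 genes that did different things in these data: IFI44 and DDX60 were higher with IGFBP-7, ISG15 did not pass the test, and IFIT1 and BST2 were lower. Each sequence is the 250 bases before the RefSeq start of the gene in GRCh38.p14, read 5′ to 3′ on the gene's strand. Capitals mark the ISRE core, a pair of GAAA repeats with any 2 bases between them, found on either strand, and overlapping matches run together.
IFI44, chr1:78649539-78649788, plus strand: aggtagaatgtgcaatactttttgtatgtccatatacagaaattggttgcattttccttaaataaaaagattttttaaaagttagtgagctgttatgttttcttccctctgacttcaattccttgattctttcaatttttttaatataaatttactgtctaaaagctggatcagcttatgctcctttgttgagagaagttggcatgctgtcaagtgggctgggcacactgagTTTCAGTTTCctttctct
DDX60, chr4:168318753-168319002, minus strand: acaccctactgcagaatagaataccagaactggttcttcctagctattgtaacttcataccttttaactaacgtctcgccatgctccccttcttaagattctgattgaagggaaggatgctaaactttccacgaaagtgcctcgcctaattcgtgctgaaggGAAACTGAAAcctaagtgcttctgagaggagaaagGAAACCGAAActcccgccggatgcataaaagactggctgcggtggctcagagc
ISG15, chr1:1013247-1013496, plus strand: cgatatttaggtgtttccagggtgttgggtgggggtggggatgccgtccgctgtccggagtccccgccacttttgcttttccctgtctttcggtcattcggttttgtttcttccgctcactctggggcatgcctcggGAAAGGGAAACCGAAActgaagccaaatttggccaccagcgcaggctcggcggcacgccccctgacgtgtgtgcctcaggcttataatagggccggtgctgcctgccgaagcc
IFIT1, chr10:89392373-89392622, plus strand: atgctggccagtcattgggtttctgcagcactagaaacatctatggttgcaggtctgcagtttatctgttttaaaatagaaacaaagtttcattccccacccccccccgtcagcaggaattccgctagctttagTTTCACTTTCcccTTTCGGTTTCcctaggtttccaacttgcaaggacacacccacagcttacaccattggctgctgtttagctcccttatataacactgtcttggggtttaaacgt
BST2, chr19:17405631-17405880, minus strand: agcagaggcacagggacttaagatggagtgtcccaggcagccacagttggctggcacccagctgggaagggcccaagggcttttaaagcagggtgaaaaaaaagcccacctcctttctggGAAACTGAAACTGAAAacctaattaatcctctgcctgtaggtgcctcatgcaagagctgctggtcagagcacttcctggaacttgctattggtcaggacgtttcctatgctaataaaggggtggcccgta

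A promoter sequence of 300 bases (250 before and 50 after the start) was at hand for 26 of the 33 genes. Of these, 16 held the ISRE core on either strand, or 61.5%, against 3.65% of all 27305 promoters. The longer form, the core followed by CT, was in 12 of the 26 and in 0.271% of all promoters. The GAS core TTCNNNGAA, which reads the same on both strands, was in 7 of the 26, against 7.88% of all promoters. The ISRE core was in 10 of 19 genes lower with IGFBP-7, in both higher genes and in 4 of 5 that did not pass, so it did not separate the directions. A match is a description of these letters and not evidence of binding.

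With IGFBP-7, most interferon response genes were lower, by modest amounts. Of the 33 genes, all of which passed the filter on low values, 25 fell, 2 rose and 6 did not pass at a limma adjusted p under 0.05. Over the 11872 genes tested, 29.2% were lower and 31.3% higher, so the share of interferon genes that fell, 75.8%, stood above the background and the share that rose, 6.06%, below it. The median log2 change was -0.38 for the 33 genes and 0.02 for all genes tested. In 14 of the 33 genes every IGFBP-7 library lay under every PBS library, and in 2 every one lay above; over all genes tested these shares were 30.6% and 32.9%. In bulk RNA, less RNA per cell cannot be told apart from fewer cells that make it.

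The count depended on how the error of each gene was estimated. With robust moderation, which lets genes of unusual spread keep more of their own variance and was chosen after the data were seen, 16 genes fell and 2 rose. The background of lower genes was 29.2% under that setting as well. The 9 genes that no longer passed were MX1, MX2, OAS1, OAS2, OAS3, IFI6, XAF1, IRF9 and HERC6, and in each of them the groups overlapped. Without PBS replicate 2, 26 genes fell and 2 rose, and without PBS replicate 3 or without IGFBP-7 replicate 2, 21 fell and 3 rose. Over all 11872 genes tested, leaving out a library gave 6673 to 6841 genes changed in either direction, against 7192 with all 6 libraries. Scaling to the library total moved the median of all genes by -0.14 and gave 26 lower and 2 higher genes, against a background of 35.2% lower and 20.5% higher. Under every setting that tested them, 12 genes were lower (STAT2, RIGI, IFIH1, IFIT1, IFIT2, IFITM1, IFITM2, IFITM3, BST2, IFI35, PSMB8 and PSMB9) and 2 higher (IFI44 and DDX60).

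**Figure D1:**
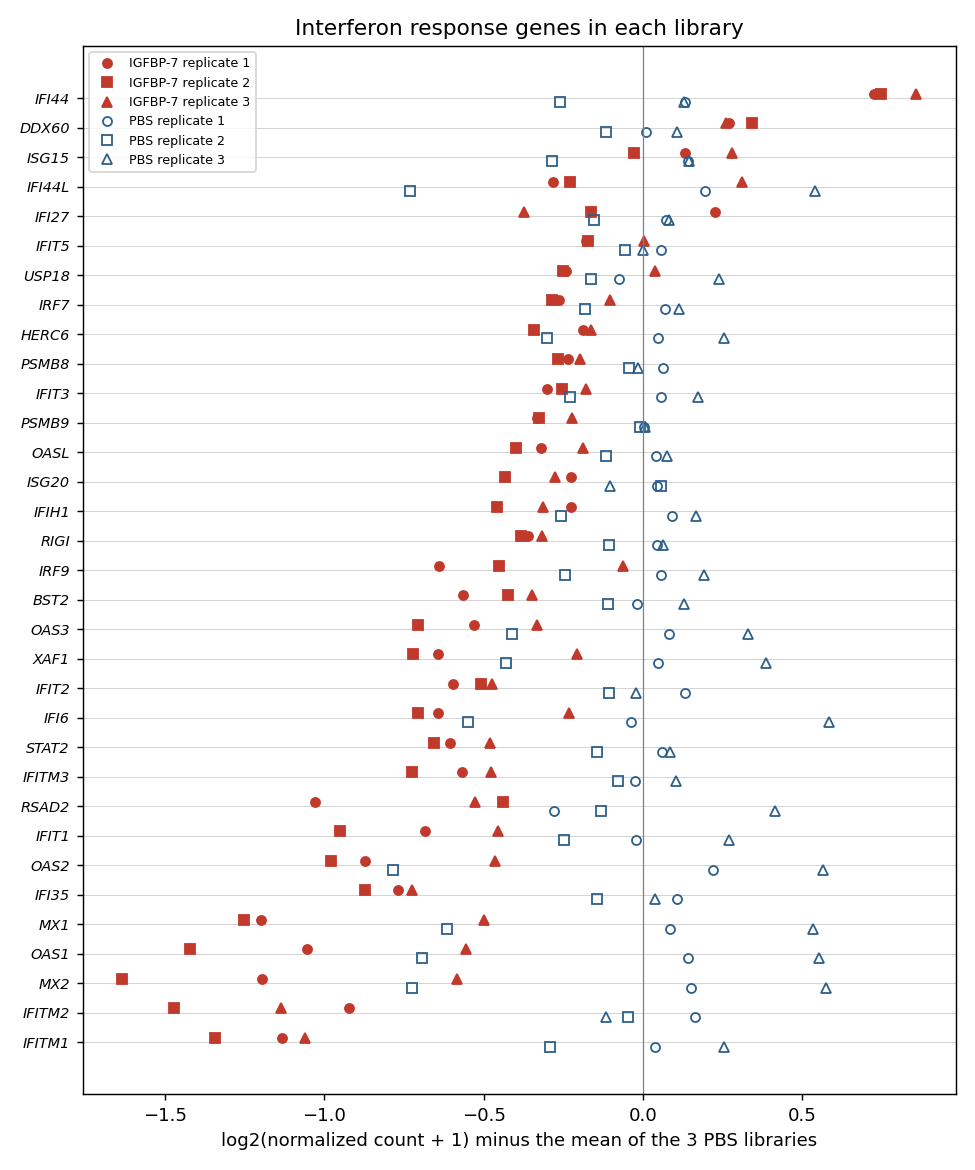
Each of the 33 genes in each library, as log2(normalized count + 1) minus the mean of the 3 PBS libraries; red filled marks are IGFBP-7 libraries and blue open marks PBS libraries, with a shape for each replicate number. IFI44 and DDX60 lie right of their PBS libraries, every IGFBP-7 mark of IFITM1 and IFITM2 lies left of its PBS marks, and in MX1, MX2, OAS1 and OAS2 the PBS libraries spread as widely as the groups differ.

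The signal transducers were lower. STAT2, a subunit of ISGF3, had 3555, 3431 and 3878 normalized counts with IGFBP-7, against 5635, 4900.3 and 5741 with PBS. The highest IGFBP-7 library was well below the lowest PBS library, and the log2 change was -0.58 ± 0.06 (limma adjusted p = 2.80e-12). IRF9, the DNA-binding subunit of ISGF3, had 1793, 2044 and 2678 with IGFBP-7 and 2907, 2356 and 3188 with PBS. Here the groups overlapped, since IGFBP-7 replicate 3 exceeded PBS replicate 2. The change of -0.38 ± 0.09 had a limma adjusted p of 0.000140, which became 0.180 with robust moderation and 0.120 with DESeq2. IRF7, which amplifies type I interferon transcription, averaged 874 ± 61.0 with IGFBP-7 and 1020 ± 110 with PBS (SD, n = 3 each). Its change of -0.22 ± 0.09 (limma adjusted p = 0.0279) lost its call when IGFBP-7 replicate 1 or 2, or PBS replicate 1 or 3, was left out, with limma adjusted p of 0.0911 to 0.158.

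The helicases that sense or act on viral RNA went in different directions. RIGI, which senses RNA ends, had 1490.4, 1470.2 and 1539 normalized counts with IGFBP-7, against 1975, 1780.4 and 2002 with PBS, and the groups did not overlap. It fell by 0.35 ± 0.07 on the log2 scale (limma adjusted p = 1.93e-05). IFIH1, which encodes the long-RNA sensor MDA5, had 793, 676 and 746 with IGFBP-7 and 989, 777 and 1040.3 with PBS. It fell by 0.33 ± 0.09 on the log2 scale (limma adjusted p = 0.00225), although 1 IGFBP-7 library exceeded 1 PBS library. DDX60, a helicase reported to assist RIGI, had 2328, 2444 and 2312 with IGFBP-7, against 1944, 1780.4 and 2077 with PBS. DDX60 rose, with every IGFBP-7 library above every PBS library and a log2 change of 0.29 ± 0.07 (limma adjusted p = 0.000177). Scaled to the library total, its change was 0.15 (limma adjusted p = 0.0467).

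The oligoadenylate synthetases make the second messenger that activates the nuclease RNase L. OAS1 and OAS2 differed widely between PBS libraries and OASL little. OAS1 had 473, 367 and 669.5 normalized counts with IGFBP-7, against 1084, 609 and 1444 with PBS. OAS2 had 1014, 941 and 1345 with IGFBP-7, against 2160.4, 1077 and 2746 with PBS. In both genes IGFBP-7 replicate 3 exceeded PBS replicate 2, so the groups overlapped, as they did in OAS3 with 5123 to 6635 against 6281 to 10498. The log2 changes of OAS1, OAS2 and OAS3 were -1.01 ± 0.16, -0.77 ± 0.14 and -0.52 ± 0.08, with limma adjusted p of 2.06e-07, 7.21e-06 and 5.42e-07. With robust moderation the adjusted p were 0.106, 0.183 and 0.121, and with DESeq2 0.0208, 0.0433 and 0.0309. OASL, a family member without synthetase activity, had 399, 378 and 437 with IGFBP-7 and 512, 459.6 and 524 with PBS, with no overlap. Its change of -0.30 ± 0.11 (limma adjusted p = 0.0161) was lost without IGFBP-7 replicate 2 (0.0740) or PBS replicate 3 (0.0709).

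The Mx proteins are dynamin-like GTPases that trap incoming viral particles. MX1 had 761, 733 and 1235 normalized counts with IGFBP-7, against 1850.5, 1138 and 2525 with PBS. MX2 had 471, 347 and 719 with IGFBP-7, against 1199, 653 and 1606 with PBS. Both groups overlapped through the same pair of libraries, IGFBP-7 replicate 3 and PBS replicate 2. The log2 changes were -0.98 ± 0.14 for MX1 and -1.14 ± 0.17 for MX2 (limma adjusted p = 3.08e-08 and 5.56e-08). With robust moderation the adjusted p were 0.0950 and 0.100, and with DESeq2 0.0220 and 0.0205.

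The IFIT proteins bind foreign RNA, and their genes lie next to each other on chromosome 10. IFIT1 had 949.7, 790.1 and 1115 normalized counts with IGFBP-7, against 1505, 1287 and 1840.3 with PBS. IFIT2 had 690.0, 734 and 751 with IGFBP-7, against 1143, 970.2 and 1028 with PBS. Neither gene overlapped between groups, and the log2 changes were -0.70 ± 0.10 for IFIT1 and -0.53 ± 0.09 for IFIT2 (limma adjusted p = 1.40e-08 and 7.88e-07). IFIT3, which stabilises IFIT1 complexes, averaged 1760 ± 75.3 with IGFBP-7 and 2099 ± 291 with PBS (SD, n = 3 each). Its change of -0.25 ± 0.07 (limma adjusted p = 0.00387) was lost without PBS replicate 3 (0.0819). IFIT5 had 827, 832 and 938 with IGFBP-7 and 975, 901 and 938 with PBS, a log2 change of -0.12 ± 0.09 that did not pass (limma adjusted p = 0.236). Scaled to the library total, it passed at -0.26 (limma adjusted p = 0.00853).

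The membrane proteins that block viral entry or release all fell. IFITM1, IFITM2 and MX2 had the most negative changes of the 33 genes and differed by less than their SE; without PBS replicate 2 the change of MX2 was -1.50 and that of IFITM1 -1.32. IFITM1, which acts at the cell surface, had 743, 642 and 781 normalized counts with IGFBP-7, against 1673, 1332 and 1941 with PBS. IFITM2, which acts in endosomes, had 738, 505 and 636 with IGFBP-7, against 1568, 1355 and 1293 with PBS. Both had a log2 change of -1.18, with SE of 0.09 for IFITM1 and 0.10 for IFITM2 (limma adjusted p = 7.56e-16 and 2.92e-15), and in both every IGFBP-7 library lay far below every PBS library. IFITM3, the endosomal factor active against influenza virus, had 5192, 4659 and 5528 with IGFBP-7, against 7572, 7293 and 8269 with PBS, a log2 change of -0.59 ± 0.06 (limma adjusted p = 2.88e-13). The IFITM genes are close paralogs, and the sources used here do not say how reads shared between them were counted, so their separate values are uncertain. BST2, which encodes tetherin, the protein that holds budding virions on the cell, had 3918, 4325 and 4556 with IGFBP-7, against 5718, 5372 and 6340.2 with PBS. BST2 fell by 0.44 ± 0.06 on the log2 scale without overlap (limma adjusted p = 4.39e-09).

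Among enzymes against viral nucleic acid, ISG20, an exonuclease, had 447, 387 and 432 normalized counts with IGFBP-7, against 539.6, 544 and 487 with PBS. Its fall of 0.31 ± 0.11 on the log2 scale (limma adjusted p = 0.0112) was lost without IGFBP-7 replicate 2 (0.0697). RSAD2, which encodes viperin, was barely expressed, with 14.3, 22.02 and 20.7 with IGFBP-7, against 24.7, 27.5 and 40.6 with PBS. The IGFBP-7 libraries lay below the PBS libraries, but at this depth the change of -0.67 ± 0.42 did not pass (limma adjusted p = 0.166).

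Of the ubiquitin-like modifier ISG15 and the enzymes around it, ISG15 and USP18 did not pass. ISG15 had 2254, 2014 and 2493 normalized counts with IGFBP-7, against 2265, 1687 and 2273 with PBS, and the groups overlapped. Its log2 change was 0.13 ± 0.08 (limma adjusted p = 0.165), and the sign was negative with scaling to the library total and without PBS replicate 2. Without PBS replicate 3 or without IGFBP-7 replicate 2 it passed as higher (limma adjusted p = 0.0272 and 0.0297). USP18, which removes ISG15 from proteins and inhibits the type I receptor, averaged 275 ± 32.6 with IGFBP-7 and 307 ± 46.6 with PBS (SD, n = 3 each; limma adjusted p = 0.344). HERC6, a gene of the ISG15 ligase family, averaged 2138 ± 141 with IGFBP-7 and 2536 ± 480 with PBS (SD, n = 3 each). The change of HERC6 of -0.23 ± 0.08 (limma adjusted p = 0.0104) was lost with robust moderation (0.229), with DESeq2 (0.170), and without IGFBP-7 replicate 2 (0.0674), PBS replicate 1 (0.0569) or PBS replicate 3 (0.260).

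The neighbouring genes IFI44L and IFI44 on chromosome 1 behaved differently. IFI44, which encodes a GTP-binding protein linked to slower cell growth, had 2284, 2316 and 2500.5 normalized counts with IGFBP-7, against 1514, 1154 and 1509 with PBS. It was the largest rise of the set, at 0.78 ± 0.08 on the log2 scale (limma adjusted p = 1.56e-12), with no overlap. IFI44L, its paralog, had 473, 491 and 715 with IGFBP-7, against 659, 347 and 838 with PBS. The IGFBP-7 values of IFI44L lay inside the PBS range, and the change of -0.07 ± 0.16 did not pass (limma adjusted p = 0.726); without PBS replicate 2 it passed as lower at -0.43 (limma adjusted p = 0.00341), and its sign turned when any of 4 other libraries was left out.

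Other genes of the IFI group were lower or did not pass. IFI35, a gene whose product pairs with NMI, had 949.7, 885 and 979.5 normalized counts with IGFBP-7, against 1743, 1464 and 1663 with PBS, a log2 change of -0.79 ± 0.08 without overlap (limma adjusted p = 1.83e-12). IFI6, which encodes a mitochondrial and endoplasmic reticulum protein, had 1610.0, 1540.4 and 2138 with IGFBP-7, against 2451, 1719.5 and 3770.4 with PBS. XAF1, a pro-apoptotic antagonist of XIAP, had 967, 915 and 1309 with IGFBP-7, against 1560.1, 1121 and 1974 with PBS. Both overlapped between groups, with log2 changes of -0.53 ± 0.12 for IFI6 and -0.52 ± 0.11 for XAF1 (limma adjusted p = 0.000181 and 5.36e-05). With robust moderation the adjusted p were 0.259 and 0.172, and with DESeq2 0.142 and 0.0806. IFI27, a mitochondrial protein gene often used in blood interferon scores, was low, at 75.6, 57.6 and 49.6 with IGFBP-7 and 68.0, 57.9 and 68.4 with PBS (limma adjusted p = 0.755).

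PSMB8 and PSMB9 encode catalytic subunits that replace constitutive ones in the immunoproteasome. PSMB9 had 1833, 1839 and 1979 normalized counts with IGFBP-7, against 2312, 2295 and 2319 with PBS, and PSMB8 had 2012, 1966 and 2064 against 2472, 2295 and 2339. Neither gene overlapped, and the falls were 0.29 ± 0.06 for PSMB9 and 0.23 ± 0.06 for PSMB8 on the log2 scale (limma adjusted p = 0.000103 and 0.00146). The 7 tested genes of the constitutive core moved the other way: all 7 rose, with a median log2 change of 0.25, and the largest changes were 0.36 ± 0.05 for PSMB2, 0.32 ± 0.05 for PSMA4 and 0.29 ± 0.05 for PSMB5, which encodes the subunit that PSMB8 replaces. With scaling to the library total 4 of the 7 rose, with a median of 0.11. Of all genes tested, 31.3% were higher without that scaling and 20.5% with it.

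**Figure D2:**
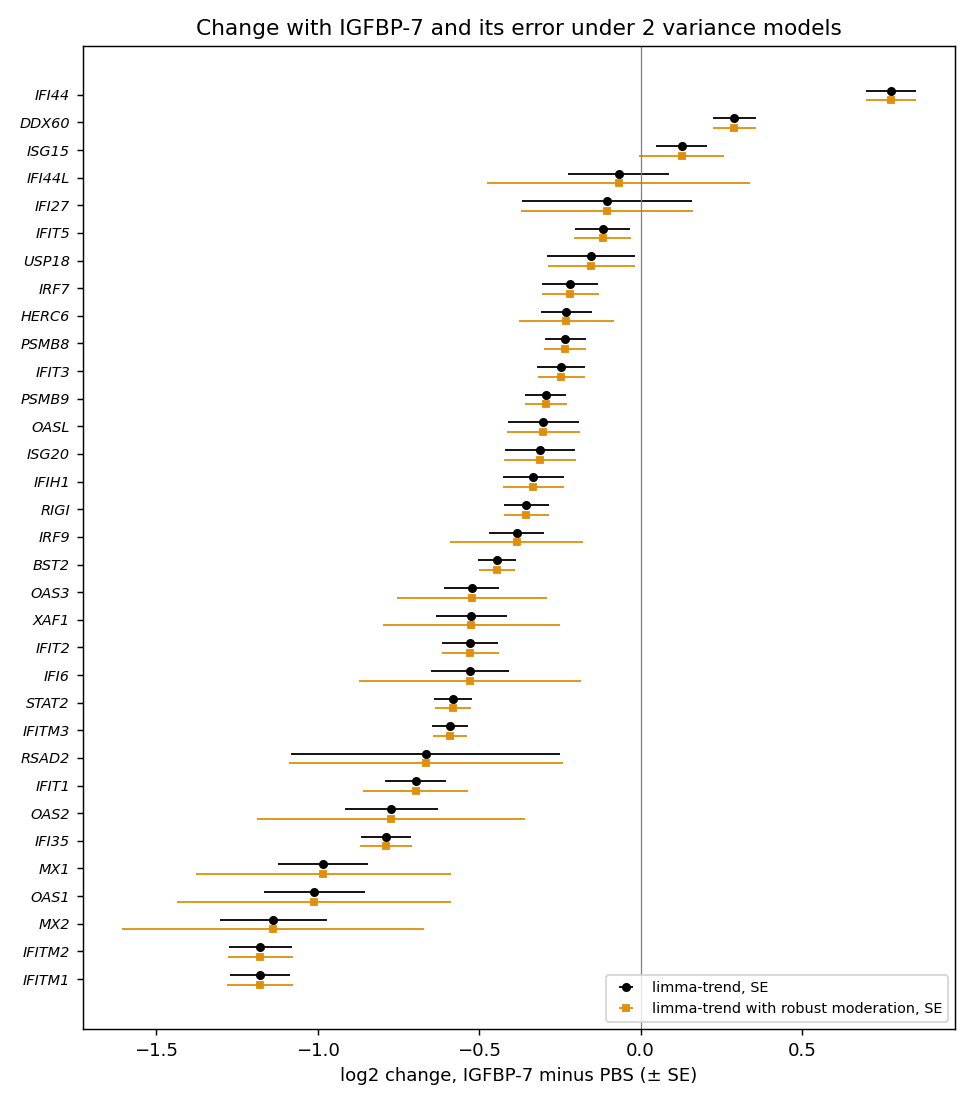
Log2 change of each of the 33 genes, IGFBP-7 minus PBS, with its SE from limma-trend (black circles) and from limma-trend with robust moderation (orange squares). The estimates are the same, and the SE is wider under robust moderation in genes such as MX1, OAS1 and MX2, for MX2 at 0.47 against 0.17.

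Levels can be compared between genes only per length. Per kilobase of merged exons (GENCODE release 29), IFITM3 and BST2 were the highest in both groups, at 3803 ± 325 and 3813 ± 288 normalized counts with IGFBP-7 and 5720.5 ± 373 and 5192 ± 439 with PBS (SD, n = 3 each). With IGFBP-7 these genes differed by less than their SD, and with PBS by more. IFI6 and ISG15 followed, at 2038 and 2395 with IGFBP-7 and 3060.0 and 2205 with PBS, and they differed by less than the SD of IFI6, which was 378 with IGFBP-7 and 1202 with PBS. At the other end were IFI27, at 14.7 with IGFBP-7 and 15.6 with PBS, and RSAD2, at 3.93 and 6.40.

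The interferon genes also shared which libraries of a group were high and which low. In PBS, replicate 2 was the lowest library for 30 of the 33 genes and replicate 3 the highest for 26. Among all 8850 genes that averaged 100 normalized counts or more, replicate 2 was the lowest in 33.2% and replicate 3 the highest in 38.3%. With IGFBP-7, replicate 2 was the lowest for 22 of the 33 genes and replicate 3 the highest for 27, against 30.5% and 22.4% of all genes. The other 47 tested interferon-stimulated effectors, which are no members of the set, had the same libraries most often at the ends. PBS replicate 2 was the lowest for 40 and PBS replicate 3 the highest for 38. With IGFBP-7 the pattern was weaker, replicate 2 being the lowest for 28 and replicate 3 the highest for 24.

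The SD of log2 levels over the 3 PBS libraries had a median of 0.21 in the 31 members with a mean of at least 100, against 0.087 in all genes at that level. Over the IGFBP-7 libraries the medians were 0.12 and 0.088. In PBS, 10 members exceeded the 95th percentile of all genes (0.26), and with IGFBP-7, 8 members did. IFI44L, MX1, MX2, OAS1, OAS2 and XAF1 were above it in both groups. Across the 31 members, the SD in IGFBP-7 libraries and the SD in PBS libraries had a Pearson correlation of 0.83, given as a description, since members share the same libraries. In OAS2 the highest PBS library held 2.55 times the lowest, and in PSMB9 1.01 times. What differed between these libraries besides the interferon genes was not tested.

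**Figure D3:**
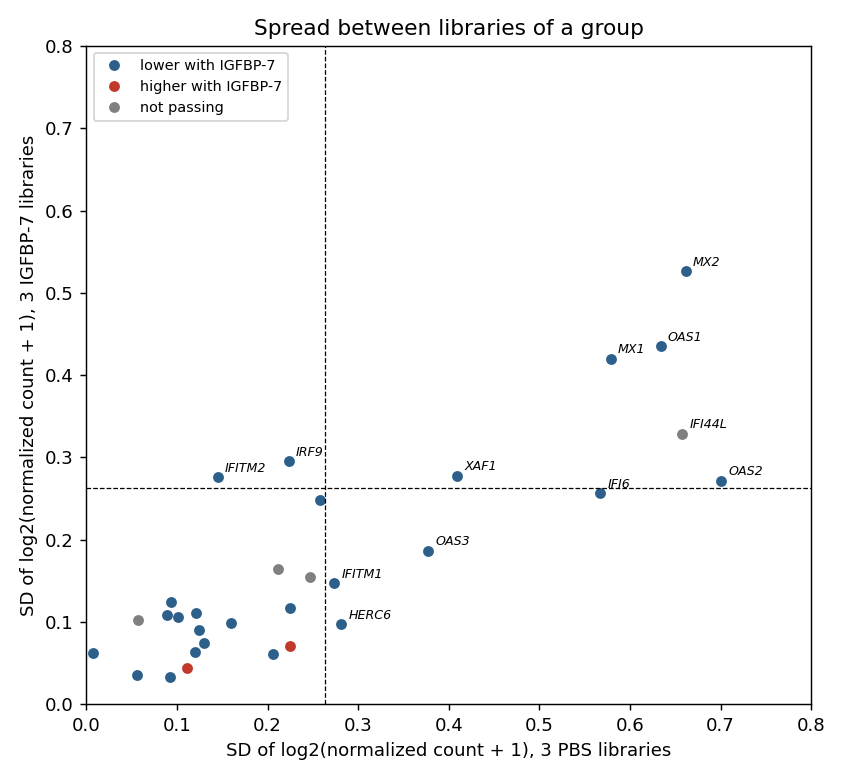
SD of log2(normalized count + 1) over the 3 IGFBP-7 libraries (vertical) against the SD over the 3 PBS libraries (horizontal) for the 31 members averaging 100 normalized counts or more, coloured by the limma call; dashed lines are the 95th percentiles of all genes at that level. MX2, OAS1, MX1, IFI44L, OAS2 and XAF1 lie beyond both lines, while genes such as PSMB8, RIGI and IFIT2 lie near the origin.

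The rest of the pathway was read from lists of 162 other genes, of which 96 were tested. Of these, 56 were lower and 17 higher, or 58.3% and 17.7%, with a median log2 change of -0.30. The lists include the constitutive proteasome core, which supplied 7 of the 17 higher genes and none of the lower. The shares over all genes were 29.2% lower and 31.3% higher. With scaling to the library total 70 of the 96 were lower and 8 higher, or 72.9% and 8.33%. The shares of all genes were then 35.2% and 20.5%. The constitutive proteasome core supplied 4 of these 8 higher genes. Of 21 listed interferon genes 5 were measured, and the others were not analysed here. Only IFNE of the 5 passed the filter on low values. IFNB1, the main type I interferon of fibroblasts, had 2 sequenced fragments in all IGFBP-7 libraries together and 2 in all PBS libraries. IFNA1 had 11 with IGFBP-7 and 4 with PBS. IFNA2 and IFNA8 had 2 and 6 with IGFBP-7, and 0 each with PBS. These counts are too low for a comparison. IFNE, a type I interferon of epithelia, had 163, 230.3 and 205 normalized counts with IGFBP-7, against 57.7, 86.4 and 68.4 with PBS. IFNE rose by 1.48 ± 0.20 on the log2 scale (limma adjusted p = 1.18e-08).

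Of 5 tested receptor genes 3 rose, 1 fell and 1 did not pass. IFNGR2, a chain of the type II receptor, averaged 3633 ± 124 with IGFBP-7 and 2832 ± 43.9 with PBS (SD, n = 3 each), a rise of 0.36 ± 0.06 on the log2 scale. IFNAR2 and IFNGR1 had log2 changes of 0.19 ± 0.07 each (limma adjusted p = 0.00928 and 0.00966), and neither passed once scaled to the library total (0.508 and 0.507). IL10RB, shared by the type III interferon and interleukin receptors, had a change of -0.24 ± 0.07, and IFNLR1 did not pass (limma adjusted p = 0.103). IFNAR1 was not analysed here.

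Below the receptors, 7 of 12 tested signalling genes fell, 2 rose and 3 did not pass. SOCS1, an inhibitor of JAK kinases that interferon induces, had the largest fall of the list, with 104, 88.1 and 98.2 with IGFBP-7 against 383, 267 and 327 with PBS. That was a log2 change of -1.73 ± 0.17 (limma adjusted p = 6.45e-13) without overlap. JAK2, SOCS3 and the repressor gene IRF2 changed by -0.29 ± 0.09, -0.26 ± 0.08 and -0.38 ± 0.08. CISH, a cytokine-induced inhibitor, changed by 0.97 ± 0.24, and the phosphatase gene PTPN2 by 0.17 ± 0.06; PTPN2 did not pass once scaled to the library total (limma adjusted p = 0.672). JAK1, TYK2 and IRF1 were not analysed here.

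In nucleic acid sensing, 10 of 16 tested genes fell, 2 rose and 4 did not pass. TRIM25, a ubiquitin ligase that acts on RIGI, had 3332, 3157 and 3580.2 normalized counts with IGFBP-7, against 6358, 5522 and 6989 with PBS, a log2 change of -0.90 ± 0.06 (limma adjusted p = 3.41e-18). MAVS, the mitochondrial adaptor of RIGI and MDA5, changed by -0.34 ± 0.05, the DNA sensor gene AIM2 by -1.02 ± 0.24 and IRF5 by -0.89 ± 0.29. CGAS, the sensor that makes cyclic GMP-AMP, and the adaptor gene TRAF3 were higher, at 0.29 ± 0.07 and 0.24 ± 0.06, and neither passed once scaled to the library total (limma adjusted p = 0.0671 and 0.123). STING1, TBK1 and IRF3 were not analysed here.

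Among the other interferon-stimulated effectors, 33 of 47 tested genes fell, 2 rose and 12 did not pass, with a median log2 change of -0.36. IDO1, a tryptophan-degrading enzyme, had 10.2, 18.6 and 8.27 normalized counts with IGFBP-7, against 86.5, 49.1 and 44.9 with PBS, a log2 change of -2.21 ± 0.41 (limma adjusted p = 7.47e-06). The AP-1 family gene BATF2 changed by -1.81 ± 0.33, and IFIT1B, a paralog of IFIT1, by -1.85 ± 0.59. IFIT1B was barely expressed, at 4.09, 6.77 and 6.20 with IGFBP-7 against 25.7, 15.7 and 28.8 with PBS. Its value is uncertain for its low level and its paralog. ZC3HAV1, which encodes the antiviral protein ZAP, and the chemokine gene CCL5 were higher, at 0.37 ± 0.05 and 0.23 ± 0.06; CCL5 did not pass once scaled to the library total (limma adjusted p = 0.243). Of 8 tested antigen presentation genes, 5 fell and 3 did not pass. HLA-E, a class I gene read by natural killer cells, averaged 10943 ± 290.1 with IGFBP-7 and 16652 ± 379.5 with PBS (SD, n = 3 each), a log2 change of -0.61 ± 0.04. HLA-G, whose groups overlapped, changed by -0.31 ± 0.10, the class II chaperone gene CD74 by -0.51 ± 0.15 and PSME1, a proteasome activator, by -0.37 ± 0.05. HLA genes share long stretches of sequence and their values are uncertain for that reason.

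**Figure D4:**
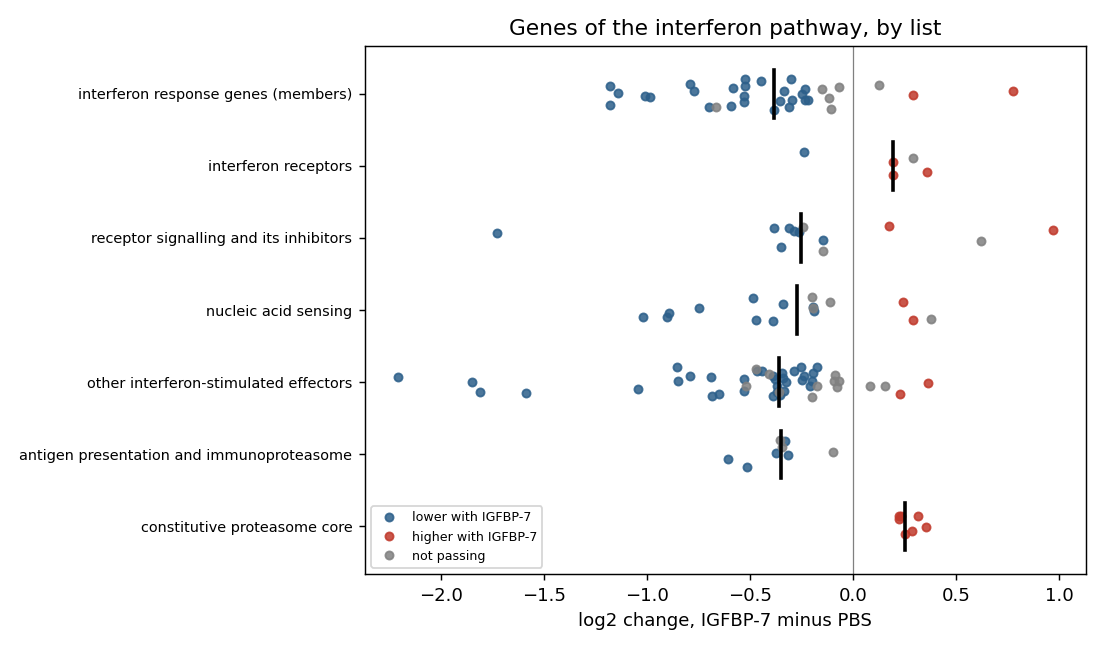
Log2 change, IGFBP-7 minus PBS, of each tested gene of the set (top row) and of 6 lists of other pathway genes; colours give the limma call and black bars the list medians. The effectors and sensors lie mostly left of 0, with medians of -0.36 and -0.27, and the constitutive proteasome genes right of 0, with a median of 0.25; IFNE, the 1 tested ligand, is left out.

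The libraries held 45242993 to 55479940 reads on the genes of the table with IGFBP-7 and 40599380 to 43537923 with PBS. Stellate and myofibroblast markers were present, with COL1A1 at 198928 ± 8843 with IGFBP-7 and 49614 ± 1794 with PBS (SD, n = 3 each), while DES was near 0. Of the 10 markers tested 7 rose, 1 fell and 2 did not pass; the one that fell was LUM, at 109 ± 9.84 with IGFBP-7 and 354 ± 58.5 with PBS. Leukocyte markers summed to 1779 to 2089 normalized counts with IGFBP-7 and 3381 to 3472 with PBS over 10 genes, 6 of which averaged under 10. The pan-leukocyte gene PTPRC was at 1.02 to 6.77 with IGFBP-7 and 1.96 to 10.7 with PBS. Most of that sum was CD68, which averaged 1466 ± 135 with IGFBP-7 and 2863 ± 53.3 with PBS. CD14 and ITGAM also fell, CD14 to 86.0 ± 16.6 with IGFBP-7 against 399 ± 11.0 with PBS. CSF1R rose, at 293 ± 44.3 with IGFBP-7 and 56.5 ± 8.05 with PBS. Their part in the lower interferon genes was not tested.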

How the data were processed

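RNA sequencing of LX-2 cells was analysed in 3 IGFBP-7 and 3 PBS libraries, grouped by their treatment label. The deposited signal is normalized counts per gene, per the file headers. The submitters' processing notes name STAR, Subread, featureCounts and DESeq2, with neither versions nor order. The library kit keeps strand, per the labels, but the sources used here give no genome build, annotation release or strand setting for the counting. RefSeq places LIPA over the IFIT genes, CMPK2 over RSAD2 and antisense genes over IFITM3 and PSMB8. It also places other genes over RIGI, DDX60, HERC6, STAT2 and XAF1. Reads shared with any of these cannot be told apart. Values were whole multiples of a step per library (100% within 0.01 of a step), and the reads recovered from them were used for edgeR and DESeq2. Paired ends were read as 2 reads to 1 fragment. The reads given to edgeR and DESeq2 were not turned into fragments, so both ends of a fragment counted there. A floor of 3 fragments in a library equals 2.54 to 3.20 normalized counts and covers counting error only.

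limma-trend (limma 3.58.1, R 4.3.3) was fitted to log2(normalized count + 1) of the 11872 genes averaging 10 or more, two-sided, with Benjamini-Hochberg adjustment over all of them; 7192 passed at 0.05. edgeR 4.0.16 (quasi-likelihood, TMM) on recovered reads called 7103 and DESeq2 1.42.0 called 7108. The other alternatives were pseudocounts of 0.5 and 5, no filter, a filter at a mean of 100, quantile normalization, scaling to the library total, a replicate block, robust moderation and leaving out each library. The fit was tested on data simulated with the same spread setting for all genes, which does not check genes of unusual spread. All genes of the set were to be named; of each pathway list, up to 3 of the largest called rises and falls and a fixed set of core genes. Some genes that this rule names are not reported here. The members and lists were chosen with earlier results of these data known. Promoters come from RefSeq, and 26 of 33 genes matched. Per-sample columns left unused numbered 0.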

Additional observations from a re-analysis of the deposited data

How the results depend on the processing

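Of the 33 genes, the number lower with IGFBP-7 fell to 16 with robust moderation, chosen after the data were seen, where the adjusted p of the 9 lost genes were 0.0950 to 0.259. That setting gives genes of unusual spread a larger error. DESeq2 gave 21 lower and 2 higher, without HERC6, IFI6, IRF9 and XAF1, and called 7108 of the 11872 genes tested in either direction. The number of other pathway genes called higher fell to 8 with scaling to the library total, which lowers every log2 change by about 0.14. Of these 8 genes, 4 were of the constitutive proteasome core. Leaving out each library in turn gave 21 to 26 lower genes, 2 to 3 higher genes and a median log2 change of -0.50 to -0.32. Over all genes tested, 6673 to 6841 then changed in either direction. The sign turned in 3 of the 6 genes that did not pass: ISG15 was at -0.014 with scaling to the library total and at -0.015 to 0.21 over the left-out libraries, IFI44L at -0.43 to 0.20 and IFI27 at -0.27 to 0.031. No label says that the replicate numbers shared by the groups mark a shared culture or day, and correlations of deviations between same-numbered libraries over all genes were -0.05, 0.01 and -0.05, so the numbers were not taken as pairs. Over the 33 genes alone these correlations were 0.33, 0.64 and 0.79. Between differently numbered libraries they ran from -0.79 to 0.34, the highest for IGFBP-7 replicate 1 and PBS replicate 2. Deviations within a group cancel, so these values depend on each other. With the replicate block 25 genes were lower and 2 higher, and 7177 of all 11872 genes tested changed in either direction. The 9 genes lost to robust moderation then had limma adjusted p of 3.42e-32 to 0.00168. That fit takes the numbers as pairs, which no label states, so these values do not settle the calls. Over all genes, no library correlated best with its own number. Both pseudocounts, both filters, quantile normalization and edgeR kept 25 lower and 2 higher genes, the filter at a mean of 100 leaving out RSAD2 and IFI27. At this depth RSAD2 and IFI27 had SE of 0.42 and 0.26.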

Other observations

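Promoters with the long ISRE letters were read over all tested genes, as a description with no test. Of 34 tested genes whose promoter held the long ISRE (the core followed by CT) on either strand, 19 were lower with IGFBP-7 and 6 higher, or 55.9% and 17.6%. Of the 9151 tested genes with a promoter and no match, 29.1% were lower and 32.6% higher. With the members of the set left out, 22 genes with a match remained, of which 12 were lower and 4 higher. Their median log2 change was -0.41, against 0.04 without a match. Only the members were left out, so the 22 may include interferon-stimulated genes of the other lists. With the ISRE core alone the shares were closer, at 36.7% lower among 300 genes with a match and 28.98% among 8885 without. For the GAS core TTCNNNGAA, 26.4% of 607 genes with a match were lower, against 29.4% of 8578 without.

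Over all tested genes the correlations of deviations between IGFBP-7 and PBS libraries lay between -0.05 and 0.07. Over the 33 interferon genes those of IGFBP-7 replicate 3 and PBS replicate 3 had a correlation of 0.79 and those of both replicates 2 one of 0.64. Those of both replicates 1 had one of 0.33, and those of IGFBP-7 replicate 1 and PBS replicate 2 one of 0.34. The other differently numbered pairs ran from -0.79 to 0.19. These values are a description over genes that share libraries.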
